A study of Mus musculus with 6 samples.

Results

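The Hox genes of the Hoxa, Hoxb, Hoxc and Hoxd clusters were followed in C3H10T1/2 cells after knockdown of Ring1a and Ring1b. Members were chosen by gene symbol, with no filter on level. They comprised 38 of the 20325 genes in the deposited table, 10 in Hoxa, 10 in Hoxb, 9 in Hoxc and 9 in Hoxd. C3H10T1/2 is a multipotent mesenchymal line from C3H mouse embryos, sequenced here at passage 10 to 15. RNA was sequenced from 3 control samples treated with a scrambled small interfering RNA and from 3 samples in which small interfering RNAs targeted Ring1a and Ring1b, all in the parental line and without further genetic change. The labels give neither the length of treatment nor whether the 3 samples of a group were separate cultures. The line is a single immortal population, and bulk RNA cannot tell fewer expressing cells from less RNA per cell.

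Hox genes encode homeodomain transcription factors that set position along the body axis. Each cluster holds its genes in order of paralog number, low numbers being used towards the head and high numbers towards the tail and the ends of the limbs. In cells that do not use them, Hox genes are kept silent by Polycomb complexes. Ring1a and Ring1b, encoded by Ring1 and Rnf2, are the catalytic subunits of Polycomb repressive complex 1, which places ubiquitin on histone H2A. The comparison asked which genes change when both ligases are depleted.

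Values are read counts estimated by the authors' software and divided by a size factor per library, here called normalised counts. A value of 1 estimated read corresponded to 0.259, 2.51 and 0.903 normalised counts in control replicates 1, 2 and 3, and to 0.565, 4.25 and 0.711 in knockdown replicates 1, 2 and 3. Depth was 51800000, 5400000 and 15100000 estimated reads in the controls and 23200000, 4600000 and 18500000 in the knockdowns. A listed 0 therefore allows, at a limit of 3 reads, up to 0.777, 7.52 and 2.71 normalised counts in the controls and up to 1.70, 12.8 and 2.13 in the knockdowns, counting error only. Knockdown replicate 2 stood apart: its log2 values correlated with those of the other libraries, across genes, at 0.821 to 0.867, against 0.944 to 0.993 for all other pairs. Rnf2 stood at 815, 829 and 799 in the controls, against 129, 76.5 and 152 in the knockdowns (limma log2 fold change -2.82, SE 0.28, adjusted p = 0.00946). It missed the threshold when control replicate 1, 2 or 3 or knockdown replicate 1 was left out (limma adjusted p = 0.0646 to 0.0852), at a log2 fold change of -2.81 to -2.90. Ring1 stood at 336, 386 and 374 and at 162, 268 and 186, a difference that missed the threshold (limma log2 fold change -0.86, SE 0.23, adjusted p = 0.104). It passed without knockdown replicate 2 (limma log2 fold change -1.06, SE 0.10, adjusted p = 3.86e-06), with total scaling (0.0441), with the length correction (0.0471) and with library weights (7.04e-07). All 10 mesenchymal markers had values in every library, with sums of 296373 to 321982 in the controls and 196274 to 400022 in the knockdowns. Of these markers, Eng alone was called and rose (limma log2 fold change 0.88, SE 0.16, adjusted p = 0.0377). Pdgfra, Pdgfrb and Col3a1 were lower in every knockdown than in any control, and Twist1, Twist2 and Thy1 higher, none of them called. Without knockdown replicate 2 limma called 7 of the 10 higher and 2 lower, beside 23.8% and 26.1% of all genes tested. Summed markers of other cell types were far lower. The 6 epithelial markers summed to 15.0 to 37.9 in the controls and 30.6 to 55.3 in the knockdowns, and the 4 endothelial markers to 87.7 to 107 and 106 to 156, nearly all of it Tek. The 5 leukocyte markers summed to 9.94 to 14.9 and 8.53 to 17.0, the 4 skeletal muscle markers to at most 1.04 and 4.25, and the 4 pluripotency markers to 9.64 to 11.9 and 0 to 10.7. The 4 neuronal markers in the table summed to 72.3 to 82.7 and 208 to 217. Most of this was the neuronal tubulin gene Tubb3, which rose (limma log2 fold change 1.32, SE 0.20, adjusted p = 0.0225), while the synaptic gene Snap25 was listed at 0 in all 6 libraries. The part of these markers in the Hox values was not tested.

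The control cells used the Hoxa cluster and left the others nearly silent. The 10 Hoxa genes supplied 99.4 to 99.6% of the summed normalised counts of the 38 genes in the controls and 87.9 to 89.7% in the knockdowns. In the controls the Hoxa sum was 2319, 2154 and 2235, the Hoxb sum 5.70, 5.01 and 9.94, the Hoxc sum 2.59, 5.01 and 4.52, and all 9 Hoxd genes were listed at 0. After knockdown the Hoxa sum was lower, at 1571, 1692 and 1465. The sums of the other clusters were higher in every knockdown than in any control: 61.2, 55.3 and 58.3 in Hoxb, 119, 157 and 105 in Hoxc, and 7.35, 21.3 and 4.97 in Hoxd. Members with a value above 0 numbered 16, 12 and 16 in the controls and 27, 20 and 25 in the knockdowns. The controls were the deeper group in sum (72400000 against 46300000 estimated reads), but control replicate 1 alone supplied 51800000. The other controls (5400000 and 15100000) were shallower than knockdown replicates 1 and 3 (23200000 and 18500000). The part of depth in these counts was not tested, and the same count over all genes in the table is not given here.

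**Figure D1:**
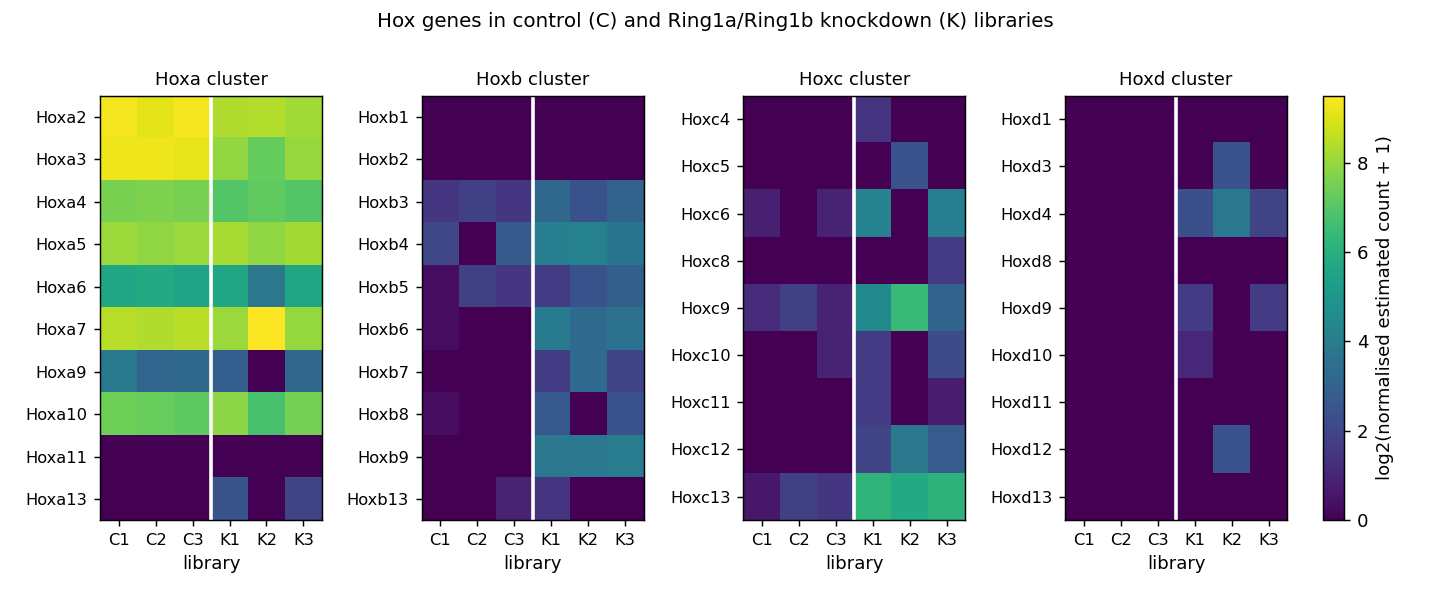
Normalised estimated counts of the 38 Hox genes on the log2(value + 1) scale, in 3 control (C) and 3 knockdown (K) libraries, with rows in order of paralog number within each cluster. Hoxa genes carry nearly all control signal, all 9 Hoxd genes are at 0 in the controls, and values appear in Hoxb, Hoxc and Hoxd in the knockdown columns.

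Genes averaging 10 or more normalised counts in the 6 libraries were tested with limma on log2(value + 1). This filter passed 9 of the 38 members: 7 Hoxa genes, Hoxc9 and Hoxc13. The Hoxc genes passed it through their knockdown values, so neither the count of tested members nor their median is a measure of the family. Among the 9, Hoxc13 rose and Hoxa2 and Hoxa3 fell (limma, Benjamini-Hochberg adjusted p under 0.05), beside 3.2% of all 12085 genes tested called higher, 1.78% called lower and 4.98% called in either direction. Hoxa4, Hoxa5, Hoxa6, Hoxa7, Hoxa10 and Hoxc9 did not pass. The median log2 fold change of the 9, Hoxc9 and Hoxc13 included, was 0.05, that of the 7 Hoxa genes -0.57, and that of all genes tested 0.01. Without knockdown replicate 2, Hoxc13 and Hoxa10 rose and Hoxa2, Hoxa3, Hoxa4 and Hoxa7 fell among 8 members tested, beside 23.8% and 26.1% of all genes. The median of these 8, which lack Hoxc9, was then -0.22, and that of all genes -0.02. Without control replicate 1, 2 or 3, limma called 0 genes in the whole table, with 1475 to 1529 (12.2 to 12.6%) at an unadjusted p under 0.05. Hox genes among them were 6 of 10 tested, 6 of 10 and 5 of 9, in that order. The tested members again include genes that passed the filter through their knockdown values.

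Because the promoters of Hox genes are often rich in the CG dinucleotide, the sequences before 5 of the members described below are shown, from RefSeq in build GRCm38.p6, a newer build than the mm9 named in the submitters' processing notes. They are the 250 bases before the listed transcription start, 5′ to 3′ on the gene's strand, with every CG in capitals. Hoxa2 (chr6:52164832-52165081, minus strand) and Hoxa3 (chr6:52213068-52213317, minus strand) fell. Hoxa5 (chr6:52204588-52204837, minus strand) lies in the same cluster and did not pass the test. Hoxb4 (chr11:96318017-96318266, plus strand) and Hoxd4 (chr2:74721728-74721977, plus strand) were higher in every knockdown than in any control.
Hoxa2: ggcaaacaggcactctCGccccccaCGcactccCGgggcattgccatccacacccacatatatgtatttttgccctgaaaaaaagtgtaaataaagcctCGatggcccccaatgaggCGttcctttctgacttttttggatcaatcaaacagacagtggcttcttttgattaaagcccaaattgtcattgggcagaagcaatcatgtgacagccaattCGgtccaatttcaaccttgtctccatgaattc
Hoxa3: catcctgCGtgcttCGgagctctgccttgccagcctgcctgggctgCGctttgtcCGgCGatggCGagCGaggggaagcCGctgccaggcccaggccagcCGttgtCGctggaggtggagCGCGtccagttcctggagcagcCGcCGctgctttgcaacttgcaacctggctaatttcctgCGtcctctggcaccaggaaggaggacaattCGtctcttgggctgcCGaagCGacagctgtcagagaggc
Hoxa5: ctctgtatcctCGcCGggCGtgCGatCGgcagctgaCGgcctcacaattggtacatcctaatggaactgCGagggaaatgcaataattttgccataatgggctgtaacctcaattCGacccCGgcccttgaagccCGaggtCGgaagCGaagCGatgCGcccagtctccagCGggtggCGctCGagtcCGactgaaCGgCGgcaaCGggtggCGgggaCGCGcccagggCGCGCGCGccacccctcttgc
Hoxb4: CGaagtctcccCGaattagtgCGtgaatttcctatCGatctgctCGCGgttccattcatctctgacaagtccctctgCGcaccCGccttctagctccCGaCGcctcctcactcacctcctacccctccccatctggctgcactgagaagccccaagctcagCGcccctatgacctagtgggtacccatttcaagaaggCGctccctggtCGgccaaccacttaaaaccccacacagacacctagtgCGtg
Hoxd4: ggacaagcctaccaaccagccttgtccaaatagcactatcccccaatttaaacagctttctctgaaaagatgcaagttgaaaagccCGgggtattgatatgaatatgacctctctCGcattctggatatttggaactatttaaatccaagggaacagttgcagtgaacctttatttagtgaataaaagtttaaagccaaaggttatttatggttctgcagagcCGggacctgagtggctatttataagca
The windows held 6 CG in Hoxa2, 18 in Hoxa3, 28 in Hoxa5, 14 in Hoxb4 and 3 in Hoxd4. The counts of the 2 members that fell lay within the range of the others shown. The Hoxa3 window lies before a listed start beyond Hoxa5 and Hoxa6, and whether these cells use that start was not tested. Across the 24 windows found for 22 of the 38 members the median was 12.5 CG and the range 2 to 35, against a median of 6 over all 32851 windows of the same length. The letters TATAAA, searched on both strands, occurred in 4 of the 24 windows, among them that of Hoxd4, and in 12.4% of all windows.

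Hoxa2 and Hoxa3, the members nearest the head end of their cluster in this set, fell together. Hoxa2 patterns the hindbrain and the pharyngeal arches. It stood at 654, 554 and 657 normalised counts in the controls, against 333, 336 and 293 in the knockdowns. The 3 knockdowns, knockdown replicate 2 included, lay close together and below every control. The mean went from 622 ± 58.7 to 321 ± 24.2 (SD, n = 3), 1.94-fold lower (limma log2 fold change -0.95, SE 0.16, adjusted p = 0.0299). Hoxa3, needed for derivatives of the pharyngeal arches such as thymus and parathyroid, stood at 608, 609 and 572 in the controls. It was at 250.5, 153 and 260.1 in the knockdowns, lowest in replicate 2, and no knockdown reached a control. Its mean went from 596 ± 21.4 to 221 ± 59.2 (SD, n = 3), 2.70-fold lower (limma log2 fold change -1.47, SE 0.24, adjusted p = 0.0325). Without knockdown replicate 2 the fall was 1.99-fold for Hoxa2 (limma adjusted p = 4.28e-06) and 2.34-fold for Hoxa3 (limma adjusted p = 1.12e-07). Both genes missed the threshold in each of the other 5 fits that left out a library, namely without control replicate 1, 2 or 3 or knockdown replicate 1 or 3 (limma adjusted p = 0.110 to 0.195 for Hoxa2 and 0.0790 to 0.168 for Hoxa3), and with every library scaled to the same total (limma adjusted p = 0.0651 and 0.117). With a correction for transcript length Hoxa2 passed (limma adjusted p = 0.0125) and Hoxa3 missed (0.0518).

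The next gene, Hoxa4, which acts in the neck vertebrae, was lower in all 3 knockdowns but missed the threshold. It stood at 193, 203 and 186 in the controls, against 124, 145 and 122 in the knockdowns, and the groups did not overlap. The limma log2 fold change was -0.57 (SE 0.16, adjusted p = 0.109). Without knockdown replicate 2 it passed (limma log2 fold change -0.65, SE 0.11, adjusted p = 0.000365), as it did with the length correction (log2 fold change -0.70, adjusted p = 0.0394) and with library weights (9.67e-05). Hoxa2, Hoxa3 and Hoxa4 were the 3 members, of 38, whose knockdowns all lay below all controls, beside 14.9% of all genes in the table. A gene listed at 0 in any control could not meet this rule, and 20 of the 38 were at 0 in all 3 controls. The 3 genes were among the 9 tested members, beside 23.7% of all genes tested. Together Hoxa2, Hoxa3 and Hoxa4 supplied 62.8, 63.4 and 63.3% of the summed Hoxa signal in the controls and 45.1, 37.4 and 46.1% in the knockdowns.

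From Hoxa5 onwards the direction was not shared. Hoxa5, which acts in the lung and the neck and upper chest skeleton, stood at 277, 243 and 266 in the controls, against 303, 243 and 297 in the knockdowns. The groups overlapped through knockdown replicate 2, and the 95% interval of the log2 fold change ran from -0.31 to 0.49 (limma adjusted p = 0.725). The ratio of Hoxa2 to Hoxa5 within a library was 2.36, 2.28 and 2.46 in the controls and 1.10, 1.38 and 0.985 in the knockdowns. That of Hoxa3 to Hoxa5 was 2.19, 2.51 and 2.15, and 0.828, 0.631 and 0.876. These ratios do not depend on the scaling of a library, and in neither did the groups overlap. The pair with Hoxa5 was chosen after the values were seen.

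Hoxa6, Hoxa7 and Hoxa10 depended on knockdown replicate 2. Hoxa6, a gene of the trunk, stood at 48.7, 55.1 and 44.3 in the controls, against 49.2, 12.8 and 46.9 in the knockdowns. The low value rests on 3 estimated reads in the shallowest library, and the interval of the log2 fold change ran from -1.98 to 0.69 (limma adjusted p = 0.493). Hoxa7, which patterns the chest region, stood at 358, 328 and 362 in the controls, against 271, 697 and 252 in the knockdowns. Knockdown replicates 1 and 3 were below every control and replicate 2 above every control (limma log2 fold change 0.05, SE 0.41, adjusted p = 0.937). Without replicate 2 Hoxa7 fell (limma log2 fold change -0.42, SE 0.09, adjusted p = 0.0017). Hoxa10, which acts in the lumbar spine, hindlimb and uterus, stood at 166, 154 and 140.0 in the controls, against 229, 106 and 184 in the knockdowns. Here replicates 1 and 3 were above every control and replicate 2 below (limma log2 fold change 0.11, SE 0.31, adjusted p = 0.832). Without replicate 2 it rose (limma log2 fold change 0.42, SE 0.13, adjusted p = 0.0157). The tested members sat between 1.83 log2 units below (Hoxa6) and 2.67 above (Hoxc9) the mean of the other 2 knockdowns in replicate 2.

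The other members with high paralog numbers had low or no signal, unlike Hoxa10. Hoxa9 stood at 13.2, 7.52 and 8.13 in the controls, against 6.22, 0 and 7.82 in the knockdowns, overlapping ranges below the filter. Hoxa11, a gene of the forearm and kidney, was listed at 0 in all 6 libraries. Hoxa13, which acts in digits and the genital tract, was listed at 0 in the controls and stood at 4.52, 0 and 2.84 in the knockdowns, or 8, 0 and 4 estimated reads. Between Hoxa10 and Hoxa13 the cluster therefore held a gene with no value in any library.

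**Figure D2:**
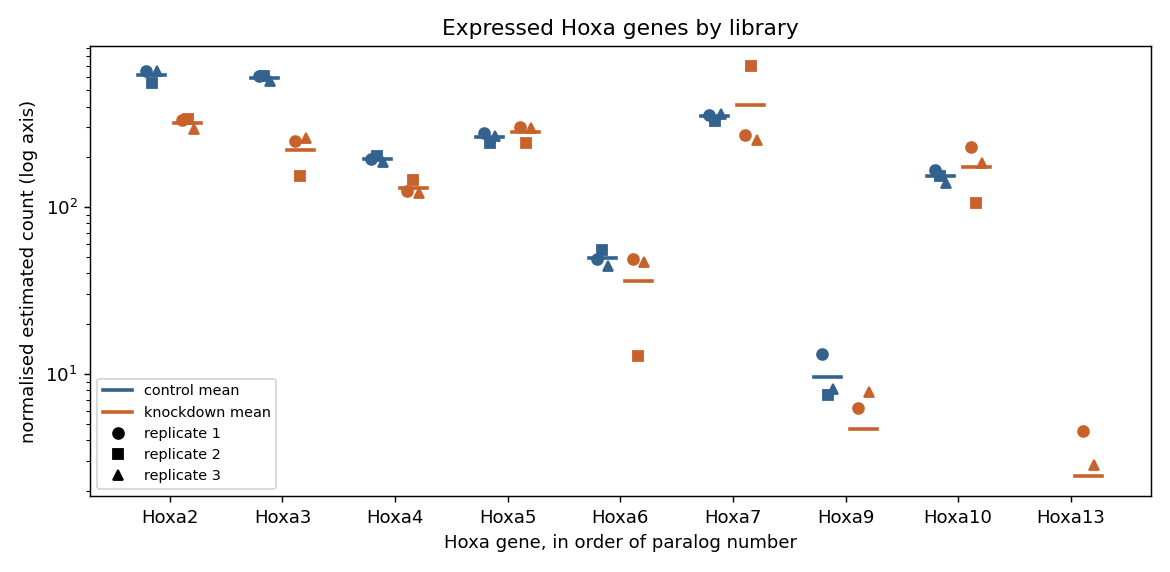
Normalised estimated counts of the 9 Hoxa genes with a mean above 1 over the 6 libraries, on a log axis, with points for the libraries and bars for the group means; values of 0 (Hoxa9 in knockdown replicate 2, Hoxa13 in that library and the controls) are not drawn. Hoxa2, Hoxa3 and Hoxa4 lie lower in every knockdown, while Hoxa7 and Hoxa10 have knockdown replicate 2 on the other side of the controls from replicates 1 and 3.

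Divided by transcript length, the control levels within Hoxa did not follow paralog number. With the median coding transcript of the GENCODE M21 annotation, Hoxa7 stood at 482 ± 25.1 normalised counts per kilobase (SD, n = 3), Hoxa3 at 406 ± 14.6 and Hoxa2 at 350 ± 33.1. Hoxa5 followed at 140 ± 9.33 and Hoxa4 at 122 ± 5.32, then Hoxa10 at 76.7 ± 6.54, Hoxa6 at 56.5 ± 6.25 and Hoxa9 at 4.72 ± 1.53. The neighbours in this order lay more than their SDs apart. The order at the top rested on the annotation: Hoxa7 has 4 annotated coding transcripts, with a median of 725 and a maximum of 2009 nt. With the longest transcript of each gene Hoxa2 came highest at 350 ± 33.1, before Hoxa3 at 230.2 ± 8.26 and Hoxa7 at 174 ± 9.05, and Hoxa10 (59.8 ± 5.10) was within its SD of Hoxa6 (56.5 ± 6.25). RefSeq starts the listed Hoxa3 transcript beyond Hoxa5 and Hoxa6, so reads over shared sequence may have been split between these genes.

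Outside Hoxa, only 2 of 28 members, Hoxc9 and Hoxc13, were tested with the filter, and Hoxc13 passed. Hoxc13 controls keratin genes of hair and nails. It stood at 0.518, 2.51 and 1.81 in the controls, which is 2, 1 and 2 estimated reads, and at 70.8, 55.3 and 69.6 in the knockdowns, or 125, 13 and 98 reads. Every knockdown was far above every control, and knockdown replicate 2 did not stand apart in this gene. The mean went from 1.61 ± 1.01 to 65.2 ± 8.64 (SD, n = 3; limma log2 fold change 4.74, SE 0.39, adjusted p = 0.00758). Its size is uncertain because the control level rests on 5 reads: it was 5.09 with a pseudocount of 0.5 and 3.41 with 5. Hoxc13 missed the threshold when control replicate 1, 2 or 3 was left out (limma adjusted p = 0.0537, 0.0536 and 0.0852, in that order), and likewise knockdown replicate 1 (0.0596). Without knockdown replicate 2 or 3 it passed (3.73e-06 and 0.0456). It supplied 37.8, 23.6 and 41.5% of the summed Hoxb, Hoxc and Hoxd signal of the knockdowns.

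**Figure D3:**
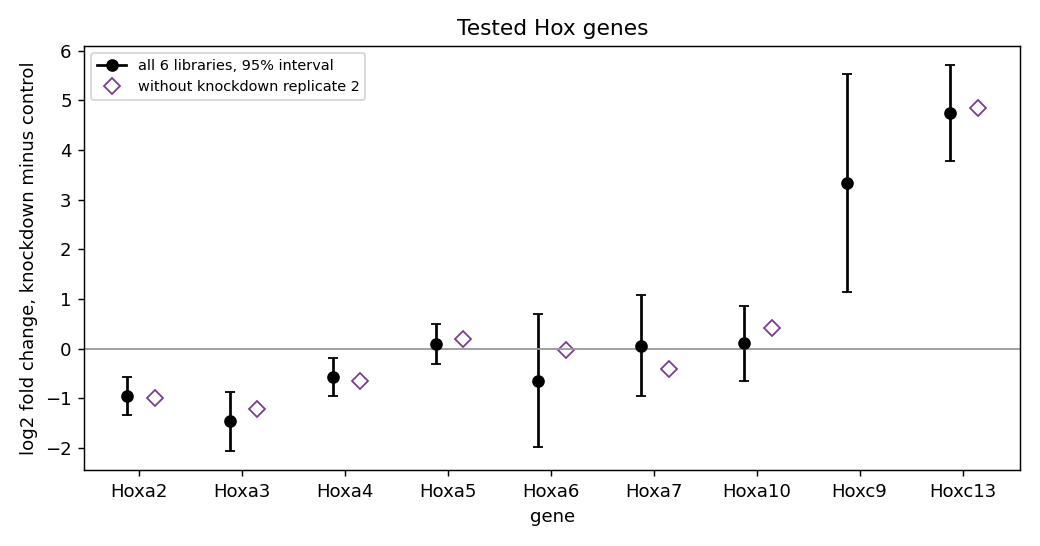
Limma log2 fold change (knockdown minus control, log2(value + 1) scale) of the 9 tested Hox genes, as points with 95% intervals from all 6 libraries and as open diamonds without knockdown replicate 2, where Hoxc9 fell under the filter. Hoxa2 and Hoxa3 lie below 0 and Hoxc13 at 4.74, and the estimates of Hoxa6 and Hoxa7 shift most among the Hoxa genes when the library is left out.

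Hoxc9 reached values like those of Hoxc13 in 1 knockdown, and the remaining Hoxc genes stayed lower. Hoxc9, a gene of the chest region, stood at 1.29, 2.51 and 0.903 in the controls, against 21.5, 85.0 and 7.11 in the knockdowns. The groups did not overlap, but the knockdowns ranged over more than 10-fold, and the difference missed the threshold (limma log2 fold change 3.33, SE 0.89, adjusted p = 0.107). Hoxc12, the neighbour of Hoxc13, was listed at 0 in the controls and stood at 2.83, 12.8 and 5.68 in the knockdowns, or 5, 3 and 8 reads. Hoxc6 stood at 0.777, 0 and 0.903 in the controls, against 17.5, 0 and 15.6 in the knockdowns, so it was above the controls in replicates 1 and 3, and the 0 in replicate 2 allows up to 12.8. Hoxc10 stood at 0, 0 and 0.903 and at 2.26, 0 and 3.55, and Hoxc11 at 0 in the controls, against 2.26, 0 and 0.711. Hoxc4, Hoxc5 and Hoxc8 were listed at 0 in the controls and had a value in a single knockdown each, of 3, 1 and 3 reads.

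Hoxb signal was low and, in several genes, above every control in all 3 knockdowns. Hoxb9, which patterns the chest, was listed at 0 in the controls and stood at 12.4, 12.8 and 14.9 in the knockdowns (22, 3 and 21 reads). Hoxb6, a trunk gene, stood at 0.259, 0 and 0 in the controls, a single read, and at 13.6, 8.50 and 10.7 in the knockdowns. Hoxb4, known from blood stem cells, stood at 3.11, 0 and 5.42 and at 15.8, 17.0 and 12.1. In each of these genes the 3 knockdowns were above every control. Their values lay close together, but that of replicate 2 rests on 3, 2 and 4 reads, in that order. How even the knockdowns were therefore cannot be told. Hoxb3 stood at 1.81, 2.51 and 1.81 in the controls, against 8.05, 4.25 and 7.11 in the knockdowns, where the value of replicate 2 is 1 read. Hoxb7 was listed at 0 in the controls and stood at 2.26, 8.50 and 2.84. Hoxb5 and Hoxb8 overlapped between groups, Hoxb5 with 0.259 to 2.51 in the controls and 2.26 to 6.40 in the knockdowns, and Hoxb8 with 0 to 0.259 and 0 to 5.09. Hoxb13, a gene of the prostate and tail end, had 1 read in the controls and 3 in the knockdowns. The head-end genes Hoxb1 and Hoxb2 were listed at 0 in all 6 libraries.

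Hoxd was the quietest cluster. Hoxd4 was listed at 0 in the controls and stood at 3.96, 12.8 and 2.84 in the knockdowns, or 7, 3 and 4 reads, the 1 member of this cluster whose groups did not overlap. Hoxd9 stood at 2.26, 0 and 2.13 in the knockdowns. Hoxd3, Hoxd10 and Hoxd12 had 1 or 2 reads in a single knockdown each. Hoxd1, Hoxd8 and the limb genes Hoxd11 and Hoxd13 were listed at 0 in every library, so these 4 genes were not detectable at this depth.

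**Figure D4:**
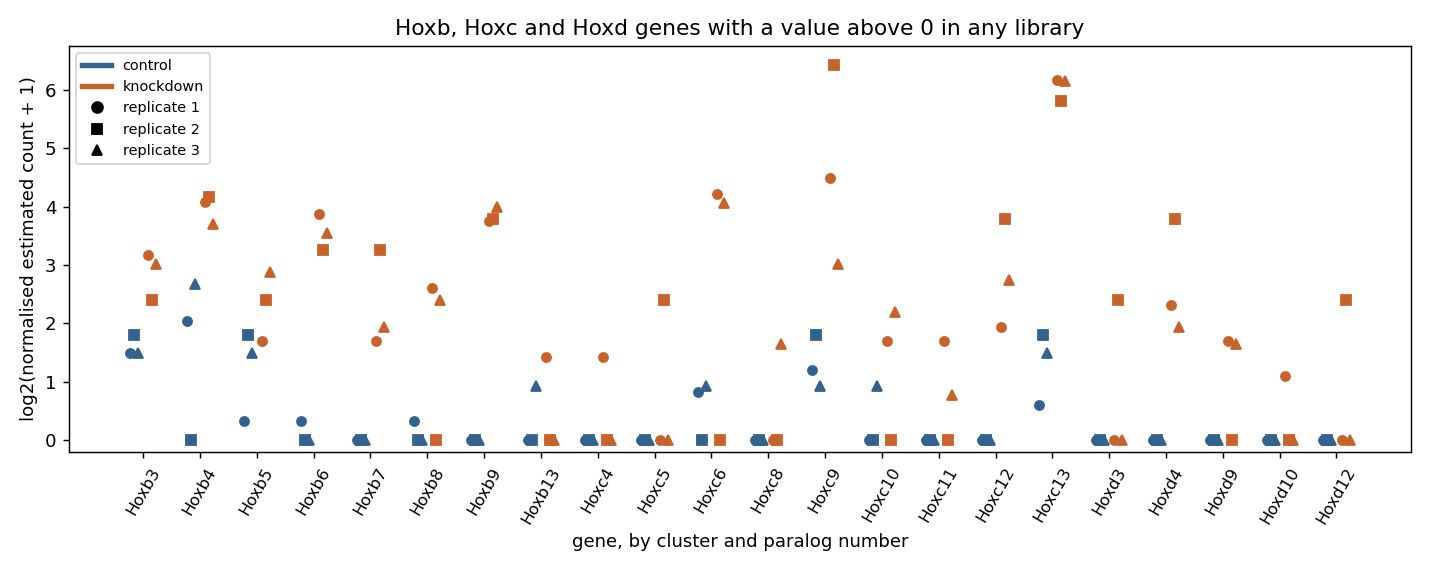
Values of the 22 Hoxb, Hoxc and Hoxd genes above 0 in any library, on the log2(normalised estimated count + 1) scale, with a point for each control and knockdown library. Hoxc13 and Hoxc9 reach the highest values, and many other genes have a knockdown library at 0. Hoxb4, Hoxb6 and Hoxb9 lie above the controls in all 3 knockdowns, on 2 to 4 reads in replicate 2.

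Counted over the family, all 3 knockdowns lay above all 3 controls in 9 members, beside 14.5% of all genes in the table. These were Hoxb3, Hoxb4, Hoxb6, Hoxb7, Hoxb9, Hoxc9, Hoxc12, Hoxc13 and Hoxd4, which is 23.7% of the 38, and none was in Hoxa. The count takes listed values as they stand. In Hoxb7, Hoxc12 and Hoxd4, knockdown replicates 1 and 3 lay under the 7.52 that a 0 in control replicate 2 allows. Hoxb3 rests on 1 read in knockdown replicate 2, which is worth more (4.25) than 1 read in any control. Knockdown replicates 1 and 3 alone lay above all controls in 17 members (44.7%), beside 23.7% of all genes. Of the 38, 20 were listed at 0 in all 3 controls. Of these 20, Hoxa13, Hoxb7, Hoxb9, Hoxc11, Hoxc12, Hoxd4 and Hoxd9 had a value in at least 2 knockdowns, which is 35% against 5.73% of the 4715 genes in the table at 0 in the controls. A further 6 had a value in a single knockdown, and 7 had none in any library. When at least 3 reads over the knockdowns were required instead, 9 of the 20 members (45%) remained, against 4.52% of the 4715 genes. That rule was chosen after the data were seen. The same 7 genes had values in both knockdown replicates 1 and 3, against 4.03% of the 4715. Without knockdown replicate 1, or without replicate 3, 4 members had a value in both remaining knockdowns.

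With no filter on low values, 31 members could be tested, all but the 7 at 0 throughout. Limma then called 4 of them higher, Hoxc13 (adjusted p = 0.00826), Hoxb9 (0.00597), Hoxb6 (0.00918) and Hoxc12 (0.0423), beside 2.64% of all 16507 genes, and Hoxa2 and Hoxa3 lower, beside 1.18%. Hoxd4 (limma adjusted p = 0.0527) and Hoxb7 (0.0569) missed the threshold narrowly. Fold changes of genes at 0 in the controls depend on the pseudocount and are not given. The authors' deposited table of 323 genes held 5 members, all higher after knockdown, beside 1.14% of the 20325 genes listed there as higher. The fold in the authors' deposited table was 40.8 for Hoxc13, 24.6 for Hoxc9, 19.6 for Hoxc6 and 32.7 for Hoxb8. For Hoxb9 the authors' deposited table gives 1359, a value set by the 0.01 added to a control mean of 0. The smallest change in the authors' deposited table was 4.01-fold upwards and 4.13-fold downwards, so Hoxa2 (1.94-fold lower here) and Hoxa3 (2.70-fold lower here) lie outside its range of folds.

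Sorted by position, Hoxa signal was lower at the lowest paralog numbers, and the signal outside Hoxa was higher in every class. In Hoxa, paralogs 2 and 3 summed to 1262, 1163 and 1228 in the controls and to 584, 489 and 553 in the knockdowns. Paralogs 4 to 7 summed to 877, 829 and 858 and to 747, 1097 and 718, with replicate 2 on the other side of the controls from the others through Hoxa7. Paralogs 9 to 13 summed to 179, 162 and 148 and to 240, 106 and 195, again divided by replicate 2. In Hoxb, Hoxc and Hoxd together, paralogs 1 to 3 averaged 2.04 ± 0.402 in the controls and 7.88 ± 0.712 in the knockdowns, paralogs 4 to 8 averaged 5.10 ± 2.84 and 58.1 ± 3.63, and paralogs 9 to 13 averaged 3.78 ± 1.72 and 130 ± 35.1 (SD, n = 3). The ratio of the group means was 3.86, 11.4 and 34.5 in these 3 classes, and 3.71, 11.7 and 29.2 without knockdown replicate 2. These ratios rest on few control reads and on Hoxc9 and Hoxc13 in the last class, and their difference was not tested. The lowest class is Hoxb3 and 1 read of Hoxd3, with 2 reads in all in knockdown replicate 2, so its SD there says little. In paralog groups 3 and 4 the clusters differed in direction: Hoxa4 was lower while Hoxb4 and Hoxd4 were higher in every knockdown, and Hoxa3 was lower while Hoxb3 was higher. In group 13, Hoxa13 and Hoxc13 both had higher knockdown means (2.46 against 0 and 65.2 against 1.61). Of paralog group 1, Hoxb1 and Hoxd1 had no value in any library.

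**Figure D5:**
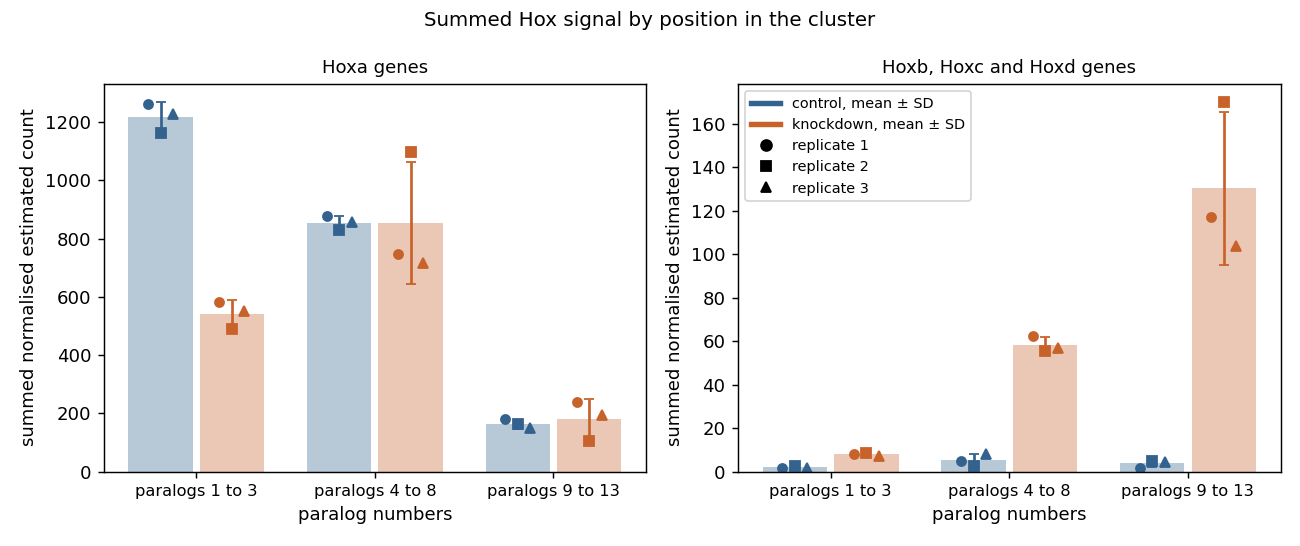
Summed normalised estimated counts by paralog number in Hoxa (left) and in Hoxb, Hoxc and Hoxd together (right), as bars for the mean, error bars for the SD and points for the 3 libraries of each group. In Hoxa the lowest paralogs average 1218 in the controls and 542 in the knockdowns, while outside Hoxa every class is higher in all knockdowns, up to 130 for paralogs 9 to 13.

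Genes that work with Hox proteins or lie beside the clusters were taken from lists and gave no call, beside 4.98% of all 12085 genes tested. At that share few calls would arise among 29 tested genes, so their absence says little about these genes. Of 9 TALE cofactors, homeodomain proteins that bind DNA with Hox proteins, 0 rose and 0 fell in limma (median log2 fold change 0.01), and 1 had an unadjusted p under 0.05, as did 2473 of all 12085 genes tested (20.5%). Meis2, an abundant member, stood at 2128, 2216 and 2170.3 in the controls, against 2145, 884 and 1968 in the knockdowns (limma log2 fold change -0.48, SE 0.36, adjusted p = 0.458). It was lowest in knockdown replicate 2, and the groups overlapped. Of 12 upstream regulators 7 were tested, with 0 calls in limma, 2 at an unadjusted p under 0.05 and a median of -0.61. The retinoic acid receptor gene Rarg stood at 3424, 3596 and 3573 and at 2505, 1411 and 2604, lower in every knockdown (limma log2 fold change -0.75, SE 0.27, adjusted p = 0.194). Mll1, the methyltransferase that keeps Hox genes active, stood at 2291, 2421 and 2143 and at 1734, 723 and 2155 (limma adjusted p = 0.380). The intestinal and tail regulators Cdx2 and Cdx4 were listed at 0 throughout. Of 18 genes beside the clusters 13 were tested, with 0 calls in limma, 4 at an unadjusted p under 0.05 and a median of -0.24. Hnrnpa1 and Cbx5, the 2 most abundant and both near Hoxc, had limma log2 fold changes of -0.12 and -0.12 (adjusted p = 0.691 and 0.727), with overlapping groups. Of the 18, 5 were higher and 4 lower in every knockdown than in any control, beside 14.5% and 14.9% of all genes. Calcoco1, another gene near Hoxc, is named for its values and had 2119, 2049.8 and 1999.9 normalised counts in the controls, against 1316, 693 and 1217 in the knockdowns. It was lower in every knockdown and missed the threshold (limma log2 fold change -0.99, SE 0.27, adjusted p = 0.113), but passed without knockdown replicate 2 (-0.70, 1.10e-06). Evx1 beside Hoxa13 and Skap1 beside Hoxb1 were named after their values were seen. Evx1 was listed at 0 in the controls and stood at 0.565, 4.25 and 0.711 in the knockdowns, a single read in each. Skap1 was at 0 in the controls too, and at 1.70, 4.25 and 1.42. Without knockdown replicate 2, 12 of the 29 tested genes of these 3 lists were called by limma, 6 higher and 6 lower, beside 49.9% of all genes. Noncoding transcripts inside the clusters were not analysed here, and since no source used here gives the strand setting, reads of antisense transcripts cannot be told apart from those of the Hox genes they overlap.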

How the data were processed

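RNA of 6 samples was sequenced after Trizol extraction and Illumina TruSeq library preparation, per the labels' protocols. The tools were RSEM 1.2.12 and Bowtie 1.0.0 with build mm9, per the submitters' processing notes; no source used here names the annotation. The authors deposited a signal per gene and library, estimated read counts divided by a size factor (median normalization, per the name of the deposited table), and a second table with a fold ratio for 323 genes. The fold the authors deposited was recomputed for all 323 genes as the ratio of group means with 0.01 added.

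The most frequent of the lowest values of each library was taken as 1 read. Between 88.4 and 90.4% of the values at or under 20 reads were whole within 0.1 read. No count test was run, because the deposited values are normalised estimated counts. Genes with a mean of at least 10 were fitted with limma 3.58.1 in R 4.3.3 on log2(value + 1), knockdown minus control, using eBayes with a trend and robust variances. Tests were two-sided and called at a p of 0.05 after Benjamini-Hochberg adjustment over all genes tested. Fold changes on this scale understate those of low genes. The code was tested on simulated data. With 3 against 3 samples an exact permutation p cannot go below 0.1, so single genes rest on limma. The p-values set the group difference against the variation among these samples only, and that variation may be technical. The members and lists were chosen with earlier results of these data known. Values in every library are given for members called, members without overlap and the 2 most abundant of each cluster; of each other list, up to 4 called genes or the 2 most abundant. A single Hox gene, and the values of 1 gene that this rule names, are not reported here. Alternatives were other pseudocounts, filters and scalings, a length correction, library weights, the replicate block and leaving out each library. Transcript lengths came from GENCODE M21.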

Additional observations from a re-analysis of the deposited data

How the results depend on the processing

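Whether the replicate numbers pair the samples was not settled. Deviations from the group means correlated at 0.17, -0.05 and -0.05 between same-numbered samples, and at -0.17 to 0.11 between the others. With 3 samples in a group such values cannot exclude a pairing. With the replicate block limma called 0 genes higher and 0 lower, with 1866 (15.4%) at an unadjusted p under 0.05. It called 0 Hox genes higher and 0 lower, with 5 of the 9 tested, Hoxc9 and Hoxc13 included, at that unadjusted p. With no filter on low values 4 Hox genes were called higher and the median log2 fold change of the 31 tested was 0.83. That median takes in genes near 0, whose fold changes depend on the pseudocount. With a mean of at least 50 the count and the median were 0 and -0.26, but that filter removed Hoxc13, Hoxc9 and Hoxa6 from the test. Total scaling, which shifts the median of all genes to -0.14, called 184 genes higher and 118 lower and 0 Hox genes lower, and gave Hoxa5 -0.0490, Hoxa7 -0.0877 and Hoxa10 -0.0339. The length correction called 639 higher and 329 lower, 1 cofactor or neighbour gene, and gave Hoxa7 and the Hox median -0.22; its 2 Hox genes called lower were Hoxa2 and Hoxa4, not Hoxa3. Library weights (gene-by-gene method) called 3048 higher and 3254 lower, 3 Hox genes higher and 4 lower and 14 cofactor or neighbour genes, and gave Hoxa6 0.00794 and Hoxa7 -0.41. Leaving out each library in turn gave 0 to 2855 genes higher and 0 to 3136 lower, 0 to 2 Hox genes higher and 0 to 4 lower, a Hox median of -0.22 to 0.10, 0 to 12 cofactor or neighbour genes, and 4 to 9 Hox genes at 0 in the controls with values in the knockdowns. The highest counts of calls came without knockdown replicate 2, where Hoxa7 was -0.42 and Hoxa10 0.42; Hoxa7 reached 0.32 without knockdown replicate 3, and Hoxa10 -0.13 without knockdown replicate 1. The cause of these shifts was not tested. Other pseudocounts and upper-quartile scaling kept 1 Hox gene higher and 2 lower. Hoxb, Hoxc and Hoxd values rest on few reads, above all in knockdown replicate 2 and control replicate 2.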
